A study of Mus musculus with 6 samples.

Results

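The 39 genes described here encode the Wnt ligands (19 genes), the receptors that bind them at the cell surface (12 genes, Fzd1 to Fzd10, Lrp5 and Lrp6) and secreted inhibitors of the signal (8 genes, Dkk1 to Dkk3, Sfrp1, Sfrp2, Sfrp4, Sfrp5 and Wif1). They were chosen by name, and the DNA regions analyzed were those of the study's peak lists that overlapped a member's gene body plus 10 kb on either side. Of 66679 regions in all, 119 lay at these genes. Chromatin accessibility had been profiled by ATAC-seq, in which the Tn5 transposase inserts adapters mainly into open DNA, in primary smooth muscle cells of the mouse oviduct. All 6 libraries came from mated females aged 8 to 12 weeks on day 2 of pregnancy, 3 labelled WT and 3 labelled Pbrm1 cKO, and the cells had been in culture for some hours before the assay. The paper describes its Pbrm1 cKO females as carrying floxed Pbrm1 alleles and Cre at the progesterone receptor gene, which limits deletion to cells that had expressed Cre. Its littermate controls carried the floxed alleles alone. The paper gives this for its work on the uterus, and its supplement uses the same genotype names for oviductal smooth muscle cells. The labels of these libraries say only WT and Pbrm1 cKO. PBRM1 is a subunit of the PBAF form of SWI/SNF, a complex that repositions nucleosomes, and the comparison asks where accessibility differs without it.

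Wnt proteins are lipid-modified secreted ligands. They bind Frizzled receptors, and together with the co-receptors LRP5 and LRP6 this stabilizes β-catenin, which acts in the nucleus with TCF/LEF factors, whereas other Wnt signals run through Frizzled and cell polarity proteins without β-catenin. Secreted frizzled-related proteins (Sfrp) and Wif1 bind Wnt ligands outside the cell. Of the Dickkopf proteins (Dkk), Dkk1 and Dkk2 bind the LRP co-receptors. In the female reproductive tract, Wnt4, Wnt5a and Wnt7a are known for their roles in the development of the Müllerian duct, from which the oviduct forms.

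The windows below are 200 bases long, centered on the summit of a region, and were read from the plus strand of GRCm38. The first 3 are from the best-ranked promoter region among the receptors, the ligands and the inhibitors, and the capitals mark CpG dinucleotides. Promoter regions are those within 1 kb of a transcription start of the member, and all others are called distal. In values for all regions, promoter means within 1 kb of a start of any gene. By that rule 9 of the 85 distal member regions would be promoter regions, so the distal classes compared below are not quite alike.
Fzd4, chr7:89404115-89404314: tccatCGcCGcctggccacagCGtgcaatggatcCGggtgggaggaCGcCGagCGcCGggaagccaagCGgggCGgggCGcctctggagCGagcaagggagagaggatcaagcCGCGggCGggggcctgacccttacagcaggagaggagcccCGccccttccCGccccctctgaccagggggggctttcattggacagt
Wnt11, chr7:98838023-98838222: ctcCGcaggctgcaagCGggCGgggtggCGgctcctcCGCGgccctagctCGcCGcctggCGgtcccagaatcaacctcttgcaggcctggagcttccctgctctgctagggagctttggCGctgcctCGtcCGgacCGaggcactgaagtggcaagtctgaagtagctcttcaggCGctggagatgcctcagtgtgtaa
Wif1, chr10:121033444-121033643: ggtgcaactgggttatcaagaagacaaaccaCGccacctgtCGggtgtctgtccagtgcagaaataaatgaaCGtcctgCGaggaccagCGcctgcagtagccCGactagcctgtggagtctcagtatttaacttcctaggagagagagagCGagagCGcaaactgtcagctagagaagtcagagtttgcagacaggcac
They hold 17, 14 and 8 CpG dinucleotides. The next 2 are from the distal regions with the smallest p in the genotype comparison. In the Wnt3a window the capitals again mark CpG, of which it holds 1. In the window between Wnt1 and Wnt10b they mark a match to the AP-1 motif TGANTCA.
Wnt3a, chr11:59293958-59294157: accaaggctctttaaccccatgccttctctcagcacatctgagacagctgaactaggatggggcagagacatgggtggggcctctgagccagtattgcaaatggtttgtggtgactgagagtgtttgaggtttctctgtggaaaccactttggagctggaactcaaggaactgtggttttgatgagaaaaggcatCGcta
Wnt1/Wnt10b, chr15:98780693-98780892: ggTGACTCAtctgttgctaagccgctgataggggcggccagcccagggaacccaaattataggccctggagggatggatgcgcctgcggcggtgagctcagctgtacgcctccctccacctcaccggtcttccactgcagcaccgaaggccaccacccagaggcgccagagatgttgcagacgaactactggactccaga

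By their medians, the member windows were richer in GC and CpG than all windows of their class. The median GC content was 64.75% with 13 CpG in the 34 promoter windows of members, against 61% and 12 in all 21555 promoter windows, and 54% with 5 CpG in the 85 distal windows of members, against 48.5% and 3 in all 45124 distal windows. Receptor promoter windows had a median of 17 CpG (n = 15), inhibitor windows 11 (n = 6) and ligand windows 8 (n = 13). Motif letters were searched on both strands. The AP-1 motif TGANTCA was in 1 promoter window (2.94%) and 30 distal windows (35.3%) of members, against 13.2% and 43.7% of all windows of each class. The TCF/LEF motif CTTTGAT was in 0 promoter and 0 distal windows of members, against 1.51% and 2.50%, and the GATA motif AGATAA was in 1 promoter and 8 distal windows (9.41%), against 4.22% and 10.3%. A match is a run of letters and was not tested as a binding site.

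A region called in at least 1 genotype lay at a promoter of 11 of 12 receptor genes, 9 of 19 ligand genes and 4 of 8 inhibitor genes. In all, 24 of 39 members (61.5%) had a promoter region, against 62.8% of 21938 protein-coding genes. Only Lrp5 among the receptors had none, and among the inhibitors it was the Wnt-binding Sfrp1, Sfrp2, Sfrp4 and Wif1 that had one, while Dkk1, Dkk2, Dkk3 and Sfrp5 had none. Within the gene body plus 10 kb, 37 members had a region, and Wnt7a and Wnt8b had none.

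**Figure D1:**
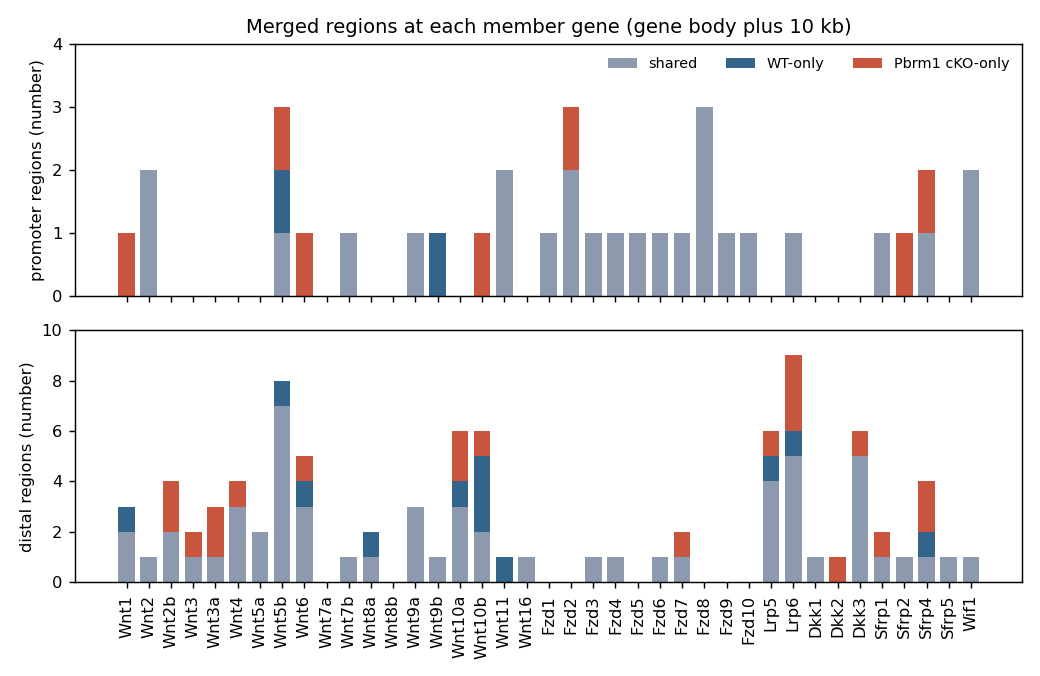
Number of merged regions (vertical axes) at each of the 39 member genes, promoter regions above and distal regions below, with colours for regions called in both genotypes (shared), only in WT or only in Pbrm1 cKO. Wnt5b has 11 regions and Lrp6 has 10, and most receptor genes have a single shared promoter region.

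The number of regions varied with the gene. Wnt5b, a ligand gene of 111.817 kb, had 3 promoter and 8 distal regions, and Lrp6, a co-receptor gene of 120.49 kb, had 1 and 9. Most Frizzled genes are short, and Fzd1, Fzd2, Fzd5, Fzd8, Fzd9 and Fzd10 had promoter regions only, as the plot of region counts shows. Of the 85 distal regions 38 lay in introns of the member, 7 in untranslated exon sequence and 40 outside the gene. A distal region need not serve the member, and 13 of the 119 regions were within 1 kb of the start of another gene. Among them were the best-ranked distal regions of Lrp5 (at Ppp6r3), Wnt10b (at Arf3), Wnt5b (at Fbxl14), Sfrp4 (at Epdr1) and Fzd3 (at Fbxo16). Wnt1 and Wnt10b are divergent neighbours, Wnt6 and Wnt10a adjoin each other on the same strand, and 5 regions counted for both genes of such a pair.

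Within a library, the regions were ordered by the highest −log10 p among its entries there, and the rank score is log2 of 66679 divided by the rank. A score of 0 is the lowest rank, and a difference of 1 means that the rank number changed by a factor of 2. The score gives a place relative to other regions, so it cannot show a shift common to the whole library. The best-ranked promoter region of the 24 members had a median place at 27.9% of all regions from the top, against 11.3% for the best promoter region of 13768 protein-coding genes. The median was 12.1% for receptors, 26.7% for inhibitors and 34.4% for ligands. Members within the top 5% were 3, all receptors, against 26.6% of the protein-coding genes with a promoter region.

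**Figure D2:**
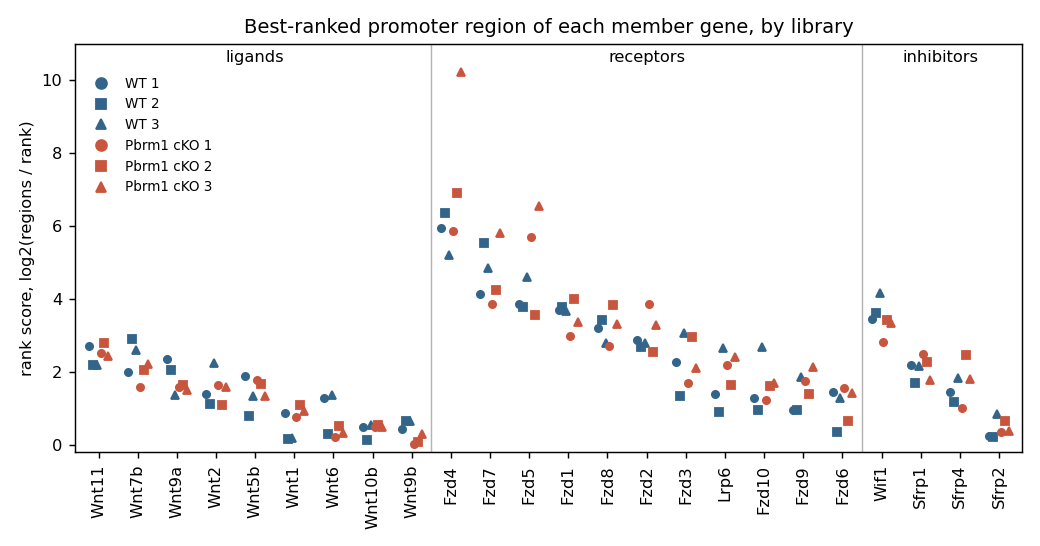
Rank score (vertical axis, log2 of the number of regions over the rank) of the best-ranked promoter region of the 24 members that have one, with 1 point per library, 3 WT in blue and 3 Pbrm1 cKO in red. The receptors Fzd4, Fzd7 and Fzd5 rank highest, with Pbrm1 cKO library 3 at 10.22 for Fzd4, and the ligand scores all lie below 3.

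Among receptors, the promoter of Fzd4 (chr7:89403435-89404828), a receptor for Wnts and for norrin, stood highest, within the top 0.892% of regions. Its ranks were 1084, 813 and 1790 in WT libraries 1 to 3 and 1141, 558 and 56 in Pbrm1 cKO libraries 1 to 3, that is rank scores of 5.94, 6.36 and 5.22 and of 5.87, 6.90 and 10.22. The groups overlapped, and the high mean of Pbrm1 cKO came mostly from library 3. The difference, Pbrm1 cKO minus WT, was 1.82 (SE 0.97, 95% interval -0.21 to 3.86; limma, Benjamini-Hochberg adjusted p = 0.371), and 0.54 without Pbrm1 cKO library 3. This region also holds the start of Tmem135, so its signal cannot be given to Fzd4 alone.

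Fzd7, Fzd5 and Fzd1 came next, at 3.67%, 4.44% and 7.92%. All encode Frizzled receptors. The Fzd5 promoter (chr1:64736771-64738095) scored 3.87, 3.78 and 4.61 in WT and 5.71, 3.57 and 6.54 in Pbrm1 cKO. Pbrm1 cKO libraries 1 and 3 were above all WT libraries and library 2 was below them, and the difference of 1.19 did not pass the test (SE 0.62, limma adjusted p = 0.365). It was 0.55 without Pbrm1 cKO library 3 and 2.04 without Pbrm1 cKO library 2. The Fzd7 promoter (chr1:59481296-59483032) scored 4.15, 5.55 and 4.84 in WT and 3.85, 4.24 and 5.82 in Pbrm1 cKO, a difference of -0.21 (95% interval -1.40 to 0.98). The Fzd1 promoter (chr5:4756922-4758485) scored 3.70, 3.79 and 3.68 against 2.99, 3.99 and 3.36, a difference of -0.27 (95% interval -1.11 to 0.56). For both, the spread among Pbrm1 cKO libraries covered the WT values, and the intervals leave room for differences in either direction.

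Among inhibitors, Wif1, which binds Wnt ligands, had the highest promoter region (chr10:121033200-121033764, top 8.71%). Its scores were 3.46, 3.63 and 4.16 in WT and 2.81, 3.42 and 3.34 in Pbrm1 cKO. The groups did not overlap, Pbrm1 cKO being lower, but the difference of -0.55 did not pass the test (SE 0.39, limma adjusted p = 0.516). A neighbouring Wif1 promoter region, over the start itself, differed in the other direction by 0.47 (SE 0.39). The other inhibitor promoters were those of Sfrp1 at 21.9%, Sfrp4 at 31.5% and Sfrp2 at 76.4%, and their differences of 0.15, 0.28 and 0.02 were smaller than their standard errors of 0.34, 0.38 and 0.20. The Sfrp2 promoter was called only in Pbrm1 cKO, yet its WT scores of 0.24, 0.21 and 0.85 spanned the Pbrm1 cKO scores of 0.35, 0.64 and 0.38.

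The best ligand promoter was that of Wnt11 (chr7:98837959-98838212, top 16.9%), a ligand best known for signals without β-catenin. It lies 633 bases from an alternative start and inside an intron of the gene's longer form. Its scores of 2.72, 2.20 and 2.18 in WT and 2.53, 2.78 and 2.45 in Pbrm1 cKO overlapped, with a difference of 0.22 (SE 0.34). Wnt7b, at 20.5%, scored 1.99, 2.92 and 2.61 in WT and 1.60, 2.05 and 2.22 in Pbrm1 cKO, a difference of -0.55 (SE 0.35, limma adjusted p = 0.476). Wnt9a and Wnt2 followed at 28.2% and 33.4%, with differences of -0.35 and -0.15 inside their spread.

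A member without a called promoter region was not shown to be closed. Of the 15 such members, 9 (Dkk1, Dkk2, Dkk3, Lrp5, Wnt16, Wnt2b, Wnt4, Wnt5a and Wnt7a) had a promoter entry in the relaxed list of every library, called at a p of 0.01. The promoter of Wnt5a, a ligand of the Müllerian mesenchyme, held 6 to 9 entries per library, and the best stood between 18.05% and 29.3% of the library's list. Promoter entries of Wnt4 stood between 20.6% and 47.3%, and those of Wnt7a between 29.4% and 51.9%. Wnt3 and Sfrp5 had promoter entries in 5 libraries, Wnt3a in 2 WT libraries, Wnt10a in WT library 1, and Wnt8a and Wnt8b in 0. Over the whole of each locus, all 39 members had entries in every library, in total 426, 422 and 410 in WT (419 ± 8.33, mean ± SD, n = 3) and 388, 404 and 415 in Pbrm1 cKO (402 ± 13.6, n = 3). The ranges overlapped, and the lists are limited to 300000 entries each, so these totals depend on that limit. Each list held 201228 to 241237 distinct intervals. The numbers of members with entries were not set against all genes, so they do not mark these members out.

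The regions called in each genotype were compared next. There is 1 list per genotype, so this has no replicate and no test. Of the 119 member regions 81 (68.1%) were shared, 12 (10.1%) were called only in WT and 26 (21.8%) only in Pbrm1 cKO, against 69.2%, 13.4% and 17.4% of all 66679 regions. At promoters 25 were shared (73.5%, against 81.3% of all promoter regions) and 2 were only in WT (5.88%, against 9.61%). The other 7 were only in Pbrm1 cKO. That is 20.6% only in Pbrm1 cKO, against 9.06% of all promoter regions, from 7 regions at Wnt1, Wnt5b, Wnt6, Wnt10b, Fzd2, Sfrp2 and Sfrp4. The Wnt6 region lies 992 bases from the start, just inside the 1 kb limit. Regions in 1 list were weak: their median place was 87.0% for WT only and 80.3% for Pbrm1 cKO only, against 37.9% for shared regions. Most had entries in the other genotype all the same, 11 of the 12 in all 3 Pbrm1 cKO libraries and 22 of the 26 in all 3 WT libraries. None lacked entries in the other genotype altogether. Over all 66679 regions 93.5% had an entry in every library. These counts and median places were not computed for all regions in 1 list.

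The libraries were then compared region by region with limma, fitted to all 66679 regions. No member region passed an adjusted p of 0.05 in either direction, where 0.039% of all regions passed as higher in Pbrm1 cKO and 0.0285% as lower, and the smallest adjusted p at a member was 0.0906. At an unadjusted p under 0.05, 8 member regions were higher and 10 lower, against a background of 7.51% and 8.37%. The libraries of the genotypes did not overlap at 10 regions that were higher in Pbrm1 cKO and 14 that were lower, against 10.6% and 10.9% of all regions. These shares of 119 are near the background. The outcome depended on the scale: with normal scores of the ranks in place of their logarithm, 2 member regions passed as higher and 1 as lower, where 0.993% and 1.33% of all regions passed, and with normal scores 0 passed after WT library 1 or either of Pbrm1 cKO libraries 1 and 2 was left out.

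**Figure D3:**
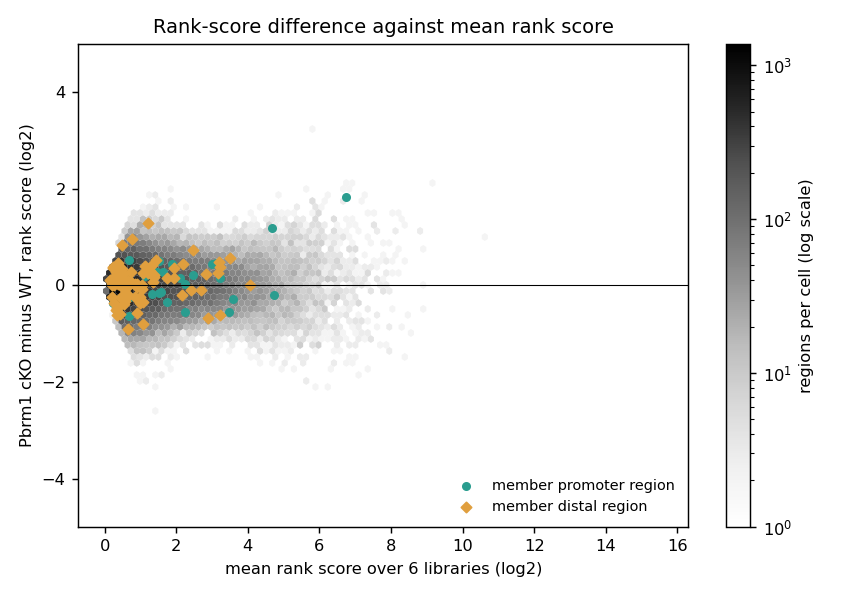
Difference in rank score (vertical axis, Pbrm1 cKO minus WT, log2) against the mean rank score over 6 libraries (horizontal axis, log2) for all 66679 regions as grey cells, with the 34 promoter and 85 distal member regions in colour. Members lie inside the grey cloud, from -0.91 to 1.82.

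Member differences were mostly small. They ran from -0.91 to 1.82 with a median of 0.09, beside a median of 0.00055 over all regions and a median standard error of 0.30 at members. The median was 0.13 at member promoters, against -0.04 at all promoter regions, and 0.07 at distal member regions, against 0.02. Differences were above 0 at 76 of the 119 regions (63.9%, against 50.0% of all regions) and below 0 at 43. With 1 library left out, 63 to 76 were above 0. The split was 63 and 56 without Pbrm1 cKO library 2, and 73 and 46 without WT library 3. It was not tested. At promoters the median was -0.0019 without WT library 2 and 0.23 without WT library 3. The entries of WT library 3 were the weakest, with a median fold enrichment of 3.61 against 4.43 to 4.87 in the other 5, and a median of 15.5 tags over the summit at member regions, against 24 to 31. The part of that library in the sign of the differences was not tested beyond these values.

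**Figure D4:**
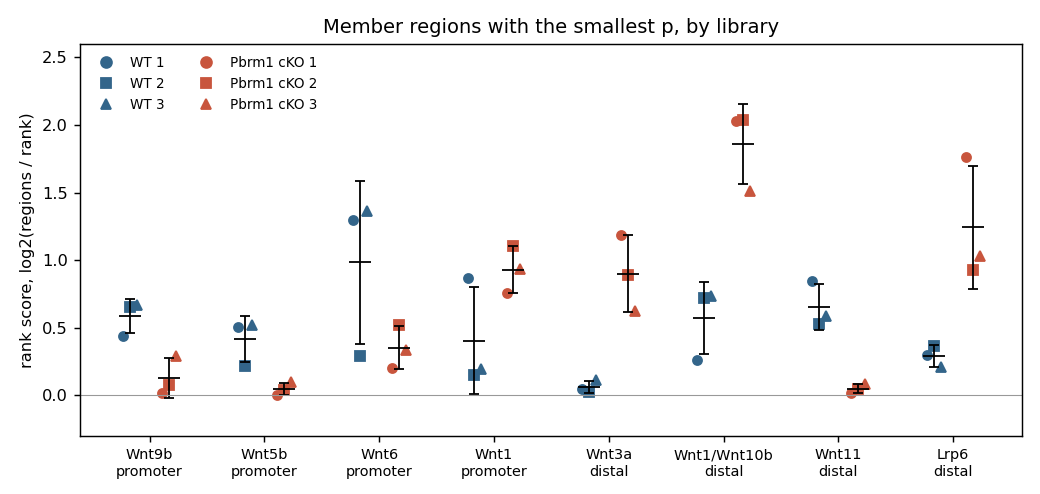
Rank score (vertical axis, log2 of the number of regions over the rank) in each library for the 4 promoter and the 4 distal member regions with the smallest p, with the mean ± SD of 3 libraries per genotype in black. In 6 of these 8 regions the genotypes do not overlap, whereas at the Wnt6 and Wnt1 promoters they do. The regions were chosen by p on these same scores, so their separation is in large part given by the choice. Over all regions 10.6% were apart and higher in Pbrm1 cKO and 10.9% apart and lower.

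The distal region with the smallest p lay upstream of Wnt3a, a ligand that signals through β-catenin (chr11:59293971-59294288, 3219 bases from the Wnt3a start). Its scores were 0.05, 0.03 and 0.11 in WT and 1.19, 0.89 and 0.62 in Pbrm1 cKO, from 10, 8 and 6 tags over the summit and from 32, 22 and 21. All 3 Pbrm1 cKO libraries were above all WT libraries, and the region was called only in Pbrm1 cKO. The difference was 0.84 (SE 0.20, limma adjusted p = 0.0906), and with normal scores it was 1.67 SD units (SE 0.38, adjusted p = 0.0207). Over all alternatives, those added later included, its adjusted p ran from 0.0162 to 0.217. The Wnt3a promoter itself had no called region.

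A region between Wnt10b and Wnt1 (chr15:98780490-98781136) showed the largest distal difference. It was called in both genotypes and lies 2340 bases upstream of the Wnt10b start and 8721 bases upstream of the Wnt1 start, in the intergenic stretch from which the genes are transcribed in opposite directions. Both encode ligands. Its scores were 0.26, 0.72 and 0.73 in WT, with 20, 25 and 15 tags, and 2.03, 2.04 and 1.51 in Pbrm1 cKO, with 58, 51 and 40 tags. The groups were well apart, by more than the range within either, and the difference was 1.29 (SE 0.32, 95% interval 0.62 to 1.96; limma adjusted p = 0.0924, range over alternatives 0.0157 to 0.259). The AP-1 match shown in capitals above lies near the 5′ end of its window.

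**Figure D5:**
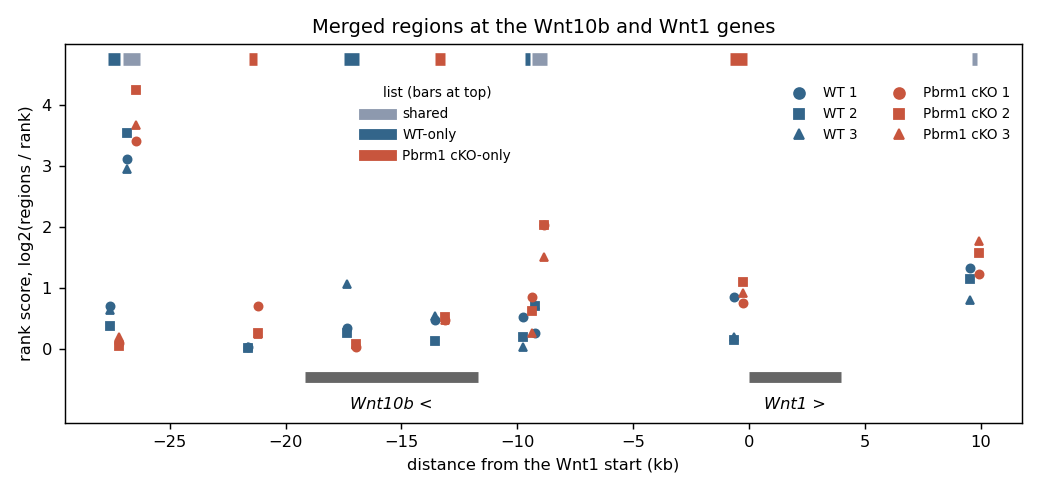
Rank score (vertical axis, log2 of the number of regions over the rank) of each merged region at the Wnt10b and Wnt1 genes by distance from the Wnt1 start (horizontal axis, kb), WT points drawn slightly to the left of Pbrm1 cKO points, gene bodies in grey and the genotype list of each region as bars at the top. Of the regions upstream of both genes, the one at chr15:98780490-98781136 has the 3 Pbrm1 cKO scores above 1.5 and the 3 WT scores below 0.75.

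The rest of this locus did not move as one. Another region between the genes, starting at chr15:98780190, was called only in WT. The Wnt1 promoter region (chr15:98789039-98789771), called only in Pbrm1 cKO, scored 0.86, 0.15 and 0.20 in WT and 0.76, 1.10 and 0.93 in Pbrm1 cKO. WT library 1 lay within the Pbrm1 cKO range, and the difference of 0.53 did not pass the test (SE 0.25, limma adjusted p = 0.323). A weak region inside Wnt10b (chr15:98772397-98773026, only in WT) differed by -0.50 (SE 0.18), and the strongest region, at the Arf3 start (chr15:98762856-98763566), by 0.57 (SE 0.39). A distal Wnt10b region (chr15:98768268-98768640) did not pass the main test. With normal scores of ranks by fold, added after seeing the data, it was higher in Pbrm1 cKO by 1.42 (SE 0.35, limma adjusted p = 0.0435). In that setting 753 of all regions passed as higher, and the region's adjusted p over all alternatives ran from 0.0435 to 0.408.

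Among receptors, the smallest p was at a region in an intron of Lrp6 (chr6:134537205-134537986), the co-receptor of β-catenin signalling. Its scores were 0.30, 0.36 and 0.21 in WT and 1.77, 0.93 and 1.03 in Pbrm1 cKO, with no overlap. The difference was 0.95 (SE 0.28, limma adjusted p = 0.124). The other 8 distal regions of Lrp6 differed by -0.22 to 0.29 and its promoter by 0.43 (SE 0.41), all within their spread.

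The region that was lowest in Pbrm1 cKO relative to its error lay in an intron of Wnt11 (chr7:98851195-98851654, 16313 bases from the first start). Its scores were 0.84, 0.53 and 0.59 in WT and 0.02, 0.05 and 0.08 in Pbrm1 cKO, from 21, 15 and 10 tags and from 7, 8 and 9. The groups did not overlap and the region was called only in WT. The difference was -0.60 (SE 0.15, limma adjusted p = 0.0983, range over alternatives 0.0296 to 0.288). Beside the higher-ranked Wnt11 promoter region, where the genotypes overlapped, this is a weak region at 85.3% of the ranking.

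At promoters the smallest p values belonged to lower regions. The Wnt9b promoter (chr11:103749652-103749967), of a ligand known from the development of the kidney and reproductive ducts, scored 0.44, 0.66 and 0.66 in WT and 0.01, 0.08 and 0.29 in Pbrm1 cKO, a difference of -0.46 (SE 0.16, limma adjusted p = 0.167). A Wnt5b promoter region (chr6:119543433-119543877), of a ligand that mainly signals without β-catenin, scored 0.51, 0.22 and 0.52 against 0.00, 0.04 and 0.09, with no entry in Pbrm1 cKO library 1 (-0.37, SE 0.13, limma adjusted p = 0.171). Both were called only in WT and did not overlap between the genotypes. Their summits held 10 to 19 tags in WT and at most 13 in Pbrm1 cKO, so few fragments stand behind either value.

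The 3 best-ranked distal regions that did not lie at the start of another gene were at ligand genes. They were upstream of Wnt8a (10.2%), in the last part of Wnt2b (10.4%) and in an intron of Wnt6 (10.7%). The Wnt8a region (chr18:34538232-34538506) scored 3.45, 3.45 and 3.72 in WT and 3.05, 3.17 and 2.56 in Pbrm1 cKO, a difference of -0.61 (SE 0.37, limma adjusted p = 0.434). Another region upstream of Wnt2b (chr3:104967591-104968470), a ligand related to Wnt2, scored 3.50, 2.86 and 3.32 in WT and 2.24, 2.79 and 2.61 in Pbrm1 cKO, a difference of -0.68 (SE 0.36, limma adjusted p = 0.366). In both, Pbrm1 cKO was lower without overlap, but neither passed the test. A region in an intron of Wnt3 (chr11:103780033-103780799) scored 1.89, 1.40 and 1.15 in WT and 0.59, 0.84 and 0.60 in Pbrm1 cKO, again apart, with a difference of -0.80 (SE 0.31, limma adjusted p = 0.221). The upstream Wnt2b region and the Wnt3 region were picked after their values were seen. Of the 85 distal member regions 11 were apart and lower and 10 apart and higher, where 10.9% and 10.6% of all regions were.

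Of the 17 distal regions at inhibitor genes, 4 were higher in Pbrm1 cKO without overlap of the libraries and 1 was lower, where 10.6% and 10.9% of all regions were. The Dkk3 intron region (chr7:112155269-112155583), of a Dickkopf family member, scored 1.24, 1.02 and 1.27 in WT and 1.58, 1.75 and 1.79 in Pbrm1 cKO (difference 0.53, SE 0.31, limma adjusted p = 0.418). The single region of Dkk2 (chr3:132105547-132105836) scored 0.02, 0.04 and 0.10 against 0.30, 0.69 and 0.23, with 5 to 7 tags in WT and 12 to 17 in Pbrm1 cKO (difference 0.35, SE 0.14, limma adjusted p = 0.215). None of these passed the test. Distal regions of Sfrp1 and Sfrp4 were likewise apart and higher, by 0.33 (SE 0.13) and 0.38 (SE 0.16), and another Dkk3 region was apart and lower, by -0.28 (SE 0.20).

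The list and the ranks did not always point the same way. The Wnt6 promoter region (chr1:74772884-74773062) was called only in Pbrm1 cKO but scored 1.30, 0.29 and 1.37 in WT and 0.20, 0.52 and 0.33 in Pbrm1 cKO. WT libraries 1 and 3 were above every Pbrm1 cKO library and WT library 2 was not, and the difference was -0.63 (SE 0.28, limma adjusted p = 0.286). This region is 179 bases long and lies in an intron, 992 bases from the start and so just inside the 1 kb limit. Close beside it, from chr1:74773121, begins the stronger intron region of Wnt6 at 10.7% of the ranking, which was called distal. The region called only in Pbrm1 cKO that ranked best in the Pbrm1 cKO libraries, between Wnt6 and Wnt10a (chr1:74787926-74788145), scored 2.18, 0.30 and 0.72 in WT and 2.12, 1.14 and 0.72 in Pbrm1 cKO, so that WT library 1 was the highest of all 6. Lists and ranks come from the same libraries, so a rank difference toward the genotype of the list is in large part given by the list. Of the 26 regions called only in Pbrm1 cKO 23 differed in that direction (88.5%, against 80.1% of all 11619 such regions), and of the 12 called only in WT 9 did (75%, against 88.7% of all 8908). The genotypes did not overlap at 6 of the 26 (23.1%, against 29.2%) and at 8 of the 12 (66.7%, against 38.1%), and these shares were not tested.

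Of the regions called only in WT, the 3 with the best ranks in the WT libraries were a Wnt5b intron region, the Wnt11 intron region above and a region in untranslated sequence of Wnt8a. They were chosen on the WT ranks, so their being lower in Pbrm1 cKO was in part fixed by that choice. The Wnt5b region (chr6:119451943-119452506) scored 0.50, 0.85 and 1.99 in WT and 0.40, 0.11 and 0.10 in Pbrm1 cKO. WT library 3 was far above the other 2, and without it the difference moved from -0.91 (SE 0.31, limma adjusted p = 0.168) to -0.47. The Wnt8a region (chr18:34547082-34548163) scored 0.70, 0.43 and 1.00 against 0.04, 0.10 and 0.23, a difference of -0.59 (SE 0.18, limma adjusted p = 0.142).

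The remaining 63 genes of the pathway on the list used here had 365 regions, and 0 of these passed in either direction, while 20 were higher and 24 lower at an unadjusted p under 0.05, where 7.51% and 8.37% of all regions were. A promoter region was present at 22 of 22 cytoplasmic components, 15 of 15 nuclear components and targets, and 19 of 26 co-receptors and modulators. The smallest adjusted p values were at an intron region of Ror1, a Wnt5a receptor (difference 1.44, SE 0.29, limma adjusted p = 0.0721), an intron region of Rspo4, an R-spondin that enhances Wnt signals (0.81, SE 0.18, adjusted p = 0.0873), and a region of Sostdc1, a secreted antagonist (-0.97, SE 0.22, adjusted p = 0.0904). Both Wnt5a regions differed by less than their error, by -0.08 (SE 0.30) and 0.15 (SE 0.35). Wnt5a lies 2.49 Mb from Pbrm1 on chromosome 14.

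As a check of the cell type, promoter regions were present at 5 of 5 smooth muscle markers (Acta2, Myh11, Cnn1, Tagln and Des), 3 of 3 fibroblast and 3 of 3 endothelial markers, 1 of 7 epithelial markers (Foxj1) and 1 of 4 immune markers (Cd68). The best-ranked marker promoter was that of Foxj1, a factor of ciliated epithelial cells, at 6.05%, above the best smooth muscle promoter, Acta2, at 26.9%. The defining epithelial markers Epcam, Cdh1, Krt8 and Krt18 and the pan-leukocyte marker Ptprc had no promoter region. No marker promoter passed the test, and the smallest adjusted p was 0.196, at a region of Pdgfra, a fibroblast marker. While 46.0% of all promoter regions differed toward Pbrm1 cKO, all 7 fibroblast marker regions, from 3 genes, did so, by 0.04 to 0.51. At 3 of them, 2 at Pdgfra and 1 at Dcn, all called only in Pbrm1 cKO, the libraries did not overlap, where 10.6% of all regions were apart and higher. Of all regions called only in Pbrm1 cKO, 80.1% differed in that direction and 29.2% did not overlap. One of these Pdgfra regions (chr5:75156267-75156469) is also within 1 kb of the start of Gm42803. Of the 7 smooth muscle marker regions 2 differed toward Pbrm1 cKO and 5 toward WT, from -0.36 at Cnn1 to 0.16 at Acta2, with overlap at each. An open promoter in a mixed culture does not say which cells carry it, and the part of cell mixture in the member differences was not tested.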

How the data were processed

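ATAC-seq peak lists of 3 WT and 3 Pbrm1 cKO libraries were used, with groups and replicate numbers from the labels. Per the study's methods and the submitters' processing notes, which name cutadapt, Bowtie2 and MACS2 and GRCm38.p5, the authors deposited a relaxed list per library (p of 0.01, at most 300000 entries) and 1 conservative list per genotype at an irreproducible discovery rate of 0.05 on pooled reads. The authors' entries hold a fold enrichment (a ratio), a −log10 p or q and a rescaled score. The files hold no read counts, so the depth is unknown and ranks took the place of a count test.

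The lists per genotype were merged by overlap of at least 1 bp, giving 66679 regions. Ranks were by best −log10 p, and regions without an entry shared the lowest rank. After a test on simulated data, rank scores were fitted by genotype in limma 3.58.1 (R 4.3.3) using lmFit and a trended eBayes, with Benjamini-Hochberg adjustment over all regions. Tags over a summit were solved from fold and p, and 100% of 735 entries checked at members were whole within 0.01. Genes and starts came from GENCODE M21 on GRCm38.

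Regions named are the best promoter regions of 4 members per role, the 4 promoter and 4 distal regions with the smallest p, and the 3 best-ranked regions of each genotype's own list; the other regions and genes named were picked after their values were seen. Members, gene lists, tests and rules were chosen with earlier results of these data known. The labels do not say that libraries came from separate animals, so p-values measure the spread between these libraries. The alternatives are in the closing section.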

Additional observations from a re-analysis of the deposited data

How the results depend on the processing

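Of 318 alternative values, 284 kept their side of the threshold or moved little. With normal scores, member regions passing were 2 higher and 1 lower: Wnt3a (1.67), Wnt1/Wnt10b (1.09) and the Wnt11 intron (-1.56). Alternatives added after seeing the data gave 2 higher and 1 lower with normal scores of ranks by fold (Wnt3a, a Wnt10b region and Wnt11), where 753 and 610 of all regions passed, 2 higher and 1 lower with normal scores and the replicate block, where 596 and 822 passed, and 0 to 2 higher and 0 to 2 lower with normal scores and 1 library left out, where 42 to 904 and 109 to 869 passed. Over all regions the passing number was 26 higher and 19 lower, against 662 and 890 with normal scores, 4 and 0 with ranks by fold, 66 and 65 with the replicate block, 40 and 24 in the upper part by mean score, and 21 and 10 with entries in all 6 libraries. The cause was not tested.

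Same-numbered libraries did not deviate together (correlations of -0.0029, -0.055 and 0.0091), and with the replicate block 0 member regions passed as higher and 0 as lower. Leaving out 1 library also gave 0. Ranks by fold turned Sfrp2 to -0.035. Leaving out 1 library turned the sign at 6 named regions that had not passed any test: Wnt2 (-0.38 to 0.18), Fzd7 (-0.80 to 0.19), Sfrp1 (-0.0063 to 0.35), Sfrp4 (-0.075 to 0.65), Sfrp2 (-0.086 to 0.24) and Wnt10a/Wnt6 (-0.14 to 0.82).

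An IDR of 0.01 left 56 shared member regions, 7 only in WT and 21 only in Pbrm1 cKO. Gene bodies alone held 50 shared regions, 10 only in WT and 13 only in Pbrm1 cKO. Gene bodies plus 50 kb held 182 shared, 25 only in WT and 54 only in Pbrm1 cKO. At a q of 0.05 or less, entries per library were 368 ± 54.1 in WT, with WT library 3 at 306, and 380 ± 7.21 in Pbrm1 cKO (SD, n = 3 each), so that WT, higher over all entries, was lower here. Members with a promoter region were 21 at an IDR of 0.01 and 27 within 3 kb of a start. Shares over all regions or all genes were not computed at these settings. Weak regions rest on few tags.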
